A study of Saccharomyces cerevisiae with 24 samples.

Results

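Ergosterol is the main sterol of yeast membranes, and this account follows the 31 genes that make it, store it and set its level through 20 min of salt stress. They were taken by name: every gene whose standard symbol is ERG and a number, together with HMG1, HMG2, IDI1, MVD1, NCP1, UPC2, ECM22, ROX1, MOT3, ARE1 and ARE2. All 31 were found among the 7126 features of the table, and all 31 passed the filter of a mean of at least 1 FPKM that left 6359 features to test. These genes moved in opposite directions in salt. ERG11, ERG25, ERG3, ERG2 and ERG1 fell by 20 min in all 4 strains, ERG9 and ERG26 rose in all 4, and transcripts of the repressors ROX1 and MOT3 rose 4.23-fold and 4.73-fold within 10 min in the wild type, in the fit that takes the library number into account.

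Sterol synthesis starts from acetyl-CoA. The mevalonate steps build farnesyl diphosphate, squalene synthase joins a pair of these molecules, and the later enzymes close the rings and trim lanosterol down to ergosterol. Several late enzymes use molecular oxygen and haem. The zinc cluster activators Upc2 and Ecm22 turn the genes on when sterols run low, and the repressors Rox1 and Mot3 act on sterol and hypoxic genes. Earlier work in budding yeast tied lower sterol gene transcription in osmotic stress to the Hog1 kinase, Rox1 and Mot3, a link that was not tested here.

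RNA-seq covered 24 libraries, 2 in each of 12 groups, from a wild type and 3 mutants sampled after 0, 10 or 20 min in 0.4 M NaCl. No group was sampled at 10 or 20 min without salt, so salt cannot be told apart from elapsed time or handling. Every strain, the wild type included, descends from W303-1a and carries sho1::HIS3, which removes the sensor of the other osmosensing branch, and leu2::LEU2-pSTL1-qVenus, a fluorescent reporter on the STL1 promoter. Mut1 carries Ypd1 M20D and Sln1 E1101K, E1110K and S1179D. Mut2 adds Ypd1 M92K to those changes. Mut3 carries Ypd1 I13D and Sln1 E1101K, L1109K, E1110K and S1179D. Sln1 senses osmolarity as a membrane histidine kinase, and Ypd1 takes the phosphate from it. The edited copies of YPD1 came in with TRP1 and HPH markers and those of SLN1 with URA3 and KanMX, so marker and allele cannot be told apart.

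Values are FPKM, fragment counts scaled for gene length and library size, and the read depth behind them is unknown. The FPKM of a library summed to between 1850836 and 2995688. Structural and other RNA genes took 0.176 to 0.554% of that sum in 23 libraries and 3.5% in library 0 of Mut2 at 20 min, where library 0 and library 1 are the numbers in the column names. SHO1 was listed at 0 in every library. SLN1, whose total transcript does not show the edits, was between 12.4 and 25.0 FPKM. STL1 went from 5.78 and 5.76 FPKM in the wild type at 0 min to 2588 and 2532 at 10 min. Markers of a cells summed to 2486 to 32613 FPKM and those of alpha cells to 21.9 to 49.5 FPKM; W303-1a is an a strain. In cultures sampled whole, a fall in all cells and a larger fall in some of them cannot be told apart. Whether both libraries of a group were grown apart is not stated, and every p therefore reflects the scatter of these libraries alone, which may be technical.

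The library number mattered for these genes. In all 12 groups library 1 lay above library 0 for 14 of the members, among them MOT3 (median difference 1.67 on the log2 scale), ERG28 (1.37), ROX1 (1.37), ARE1 (0.88) and UPC2 (0.63). In all 12 groups it lay below library 0 for ERG11 (-0.25), HMG2 (-0.18), ERG13 (-0.30), ERG29 (-0.55) and IDI1 (-0.38). Each comparison was therefore fitted without the library number, the unpaired fit, and with it as a term, the paired fit. A gene is called where its adjusted p is under 0.05, and rose or fell is written only of calls. Every member called by the unpaired fit was also called by the paired fit, and both give the same log2 change.

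Short DNA motifs were looked up in the 500 bases before each coding start of the R64 reference, the genome that sacCer3 carries. It comes from strain S288C, so the promoters of these W303 strains may differ. The sterol response element read by Upc2 and Ecm22, taken as TCGTATA or TCGTTTA on either strand, stood in 24 of the 31 members (77.4%) against 891 of 6000 promoters (14.8%). The 7 members with neither word in the window were ERG11, ERG12, HMG2, IDI1, ARE2, ROX1 and MOT3. The Rox1 word ATTGTT stood in 19 members (61.3%) against 48.9% of promoters, the Mot3 words CAGGCA or CAGGTA, or those letters with T in place of the leading C, in 16 (51.6%) against 48.5%, and the stress element word CCCCT in 11 (35.5%) against 34.1%. These matches are descriptions of letters, not of binding. The sites below come from the genes that the salt results turn on. Each is written 5′ to 3′ on the gene's own strand, with the motif in capitals, and a motif that lies on the opposite strand appears as its reverse complement.
ERG3, sterol response element, chrXII:253564-253593, plus strand: aaaattcaggcTCGTATAagtggcacaata
ERG3, second sterol response element, chrXII:253492-253521, plus strand: cattatttcggTCGTTTAgttgcgccccag
ERG25, sterol response element, chrVII:610070-610099, plus strand: actgcctccctTCGTATAcgggacacagag
ERG2, sterol response element, chrXIII:667341-667370, plus strand: aaccacggcccTCGTATAagccgcaaggaa
ERG1, sterol response element, chrVII:848787-848816, minus strand: gtagcgggcctTCGTATAgctcggccgagc
ERG9, sterol response element, chrVIII:484695-484724, plus strand: ggtttagtgccTAAACGAgcagcgagaaca
ERG26, sterol response element, chrVII:496648-496677, minus strand: gtccctatagaTCGTTTAttgttctctcga
UPC2, sterol response element, chrIV:889381-889410, plus strand: atttttttctcTAAACGAgcgcaccttagc
HMG2, Rox1 word, chrXII:1032337-1032366, plus strand: agagacgagcgcATTGTTttgttgaatccc
ROX1, Rox1 word, chrXVI:679288-679317, plus strand: agaaaagggcctATTGTTgctgcctctttt
MOT3, Mot3 word, chrXIII:409060-409089, plus strand: ctcaagaaggaaCAGGTAcaagaaaagatt
ERG11, Mot3 word, chrVIII:122089-122118, minus strand: caataagtgtggTAGGTAtcttgcaggaga
In ERG9 the element overlaps a Mot3 word and in ERG26 it overlaps a Rox1 word. ERG3 holds 5 sterol response elements and ERG25 3, the highest counts among the members. Of the genes that the unpaired fit called lower in all 4 strains at 20 min, ERG3, ERG25, ERG2 and ERG1 hold the element. ERG11 does not. Of those it called higher in all 4, ERG9 and ERG26 hold it. Other genes were called in all 4 strains by the paired fit alone. Of these, MVD1, NCP1 and UPC2 fell and hold the element, while IDI1 fell and lacks it. ERG20 rose and holds it, and ARE2 rose and lacks it.

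The repressor genes MOT3 and ROX1 had the 2 largest changes of all members in the wild type at 10 min. ROX1 (YPR065W, chromosome XVI, 679693 to 680799) encodes the haem-induced repressor of hypoxic genes. In the wild type it stood at 17.4 FPKM in library 0 and 67.9 in library 1 at 0 min, at 89.3 and 251 at 10 min, and at 32.4 and 58.5 at 20 min. Both libraries at 10 min lay above both at 0 min, and by 20 min the groups overlapped again. The 10 min change was 2.08 ± 0.18 on the log2 scale (SE of the paired fit), or 4.23-fold, with an adjusted p of 1.64e-07 in the paired fit and 0.101 in the unpaired one. Within library 0 the change was 2.29 and within library 1 it was 1.87. From 10 to 20 min ROX1 fell by 1.76 (paired adjusted p = 4.58e-06, unpaired 0.267).

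In Mut1 and Mut2 no change of ROX1 was called at 10 min, and in Mut3 the paired fit called a rise. Mut1 held ROX1 at 34.7 and 115 FPKM at 0 min, 41.5 and 109 at 10 min and 21.7 and 52.9 at 20 min. Mut2 went from 40.4 and 105 to 40.1 and 105 and then to 23.3 and 58.7. In both, the 0 and 10 min values nearly coincided, with log2 changes of 0.09 and -0.01 (paired adjusted p = 0.709 and 0.986), and ROX1 then fell by 0.88 in Mut1 and by 0.80 in Mut2 from 0 to 20 min (paired adjusted p = 0.000549 and 0.00119, unpaired 0.506 and 0.55). Mut3 went from 30.2 and 88.8 to 58.6 and 159 and back to 28.8 and 64.04 FPKM. Its 10 min rise of 0.88 was called in the paired fit (adjusted p = 0.000639, unpaired 0.534), and its value at 20 min was not called against 0 min in either fit.

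Before salt, ROX1 was higher than in the wild type by 0.85 in Mut1 and by 0.89 in Mut2 on the log2 scale (paired adjusted p = 0.00359 and 0.00257, unpaired 0.967 and 0.88). Both libraries of each mutant lay above the wild-type library of the same number, although the groups overlap. The call in Mut1 was lost without wild-type library 0 (0.0673) or Mut1 library 1 (0.0609), and that in Mut2 without wild-type library 0 (0.0507). In Mut3 the difference was 0.57 (paired adjusted p = 0.0697).

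MOT3 (YMR070W, chromosome XIII, 409154 to 410626) encodes the other repressor, a zinc finger protein. In the wild type it went from 4.84 and 27.5 FPKM to 30.8 and 116 at 10 min and 30.8 and 84.5 at 20 min. The lowest treated library lay just above the higher untreated one, because library 1 was well above library 0 in every group. The log2 change was 2.24 ± 0.22 at 10 min, or 4.73-fold, and 2.01 ± 0.22 at 20 min (paired adjusted p = 6.37e-07 and 1.2e-06, unpaired 0.149 and 0.166). Unlike ROX1, MOT3 was not called lower at 20 than at 10 min, with a change of -0.23 (paired adjusted p = 0.442).

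In Mut3, MOT3 rose from 5.36 and 25.9 FPKM to 23.4 and 74.8 and then stood at 21.9 and 51.5, changes of 1.72 and 1.41 (paired adjusted p = 9.62e-06 and 4.49e-05, unpaired 0.288 and 0.341). Mut1 went from 7.44 and 26.4 to 11.7 and 42.2 and 12.6 and 30.9 FPKM. Mut2 went from 8.28 and 25.0 to 12.8 and 42.1 and 8.93 and 39.1. In these 2 mutants all 4 groups in salt overlap the group at 0 min. Their 10 min changes of 0.62 and 0.65 were called by the paired fit (adjusted p = 0.0243 and 0.0191), but no fit that left out a Mut1 library kept the first (0.0667 to 0.104), and the second was lost without library 1 of Mut2 at 0 min (0.119) or either library at 10 min (0.0807 and 0.0605). At 20 min the changes of 0.46 and 0.36 were not called in either fit.

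**Figure D1:**
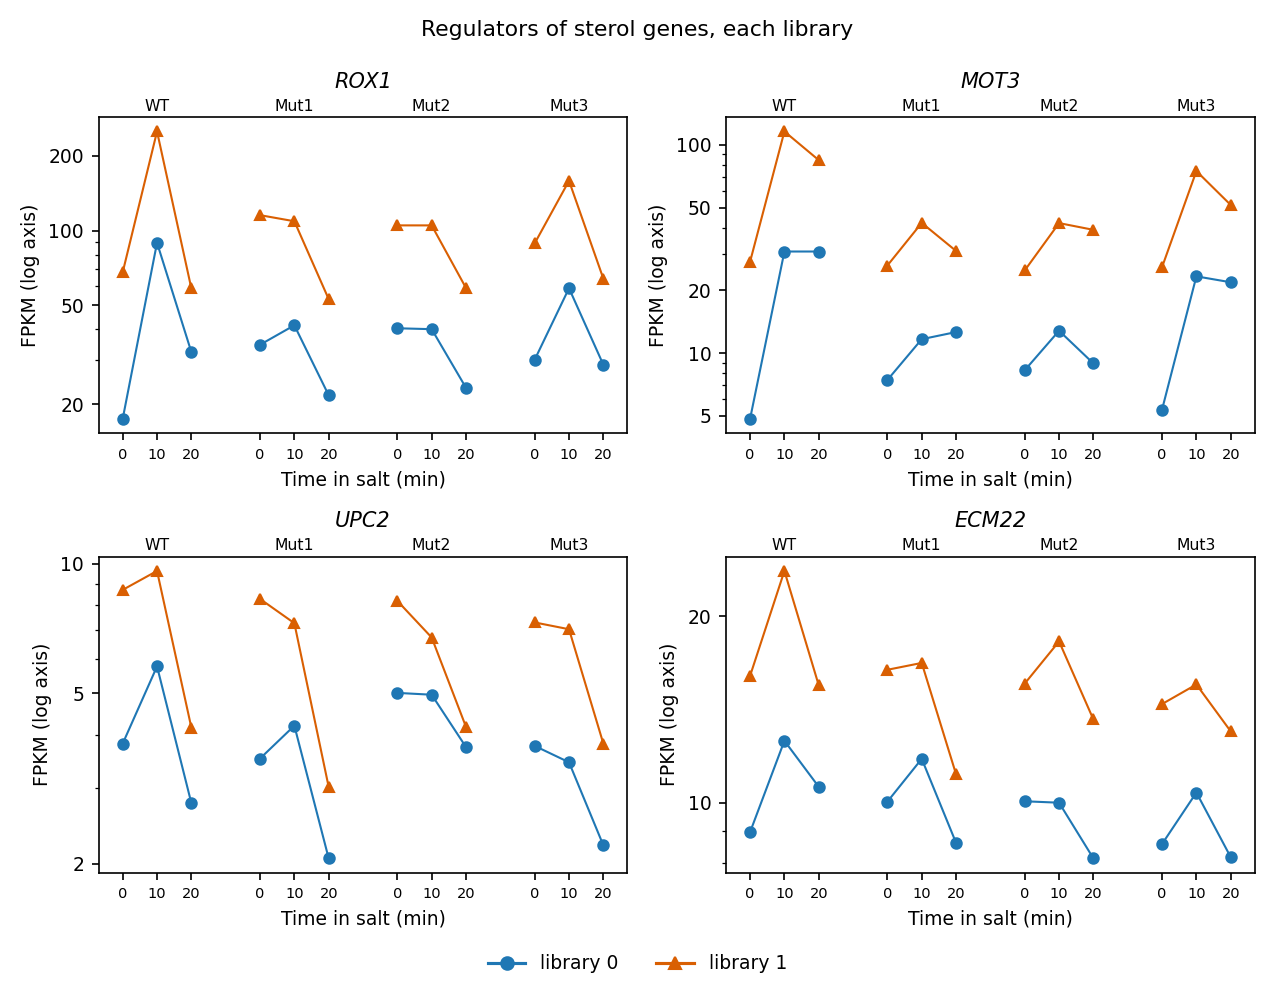
FPKM (log axis) of the 4 regulator genes in each library at 0, 10 and 20 min, by strain, with library 0 and library 1 marked apart. ROX1 and MOT3 climb between 0 and 10 min in both wild-type libraries, from 17.4 and 67.9 to 89.3 and 251 FPKM for ROX1, and library 1 lies above library 0 at every point.

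The activators were low and moved less. UPC2 (YDR213W, chromosome IV, 889751 to 892492) had the lowest mean of all members, 5.15 FPKM, and encodes the activator that senses sterol directly. In the wild type it stood at 3.81 and 8.70 FPKM at 0 min, 5.77 and 9.63 at 10 min and 2.77 and 4.15 at 20 min. By 20 min it fell in all 4 strains, by 0.63 in the wild type, 0.89 in Mut1, 0.59 in Mut2 and 0.68 in Mut3 (paired adjusted p = 0.00987, 0.00109, 0.0167 and 0.00635). No unpaired fit called it (0.148 to 0.349), and its level makes a change on the FPKM plus 1 scale smaller than the ratio of FPKM. The wild-type call was lost without library 1 at 0 min (0.126) or at 20 min (0.0738), the Mut2 call without library 0 (0.065) or 1 (0.0582) at 0 min or library 1 at 20 min (0.223), and the Mut3 call without library 1 at 0 min (0.0545). ECM22 (YLR228C, chromosome XII, 600019 to 602463), the paralogue of UPC2, rose by 0.49 in the wild type at 10 min (paired adjusted p = 0.0015, unpaired 0.423). It went there from 8.96 and 16.0 to 12.6 and 23.7 FPKM, and stood at 10.6 and 15.5 at 20 min. In Mut1 it fell by 0.36 at 20 min (paired adjusted p = 0.0111), a call lost without library 1 at 0 min (0.0556) or at 20 min (0.18).

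Over all 31 members, the share called in salt was below that of all tested features in each strain and at each time, and most calls at 20 min were falls. At 10 min in the wild type 5 members rose and 1 fell in the unpaired fit, where 17.6% of all tested features rose and 17.6% fell. The paired fit called 10 up and 7 down, against 31.8% and 29.8% of features. Mut1 had 4 up and 4 down unpaired (background 15.8% and 15.5%) and 6 up and 8 down paired (31.4% and 26.7%). Mut2 had 4 up and 2 down (16.3% and 15.4%), and 6 up and 8 down paired (31.4% and 27.4%). Mut3 had 3 up and 4 down (17.5% and 16.7%), and 7 up and 10 down paired (32.4% and 28.2%). The median log2 change of the members was 0.07 in the wild type and -0.07 in Mut3, beside 0.02 and 0.03 over all tested features.

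At 20 min the wild type had 5 members up and 6 down in the unpaired fit, with 24.5% and 22.5% of features as background, and 9 up and 11 down in the paired fit, with 38.8% and 31.9%. Mut1 had 3 up and 7 down (20.2% and 19.5%) and paired 6 up and 13 down (34% and 29.6%). Mut2 had 3 up and 6 down (21.5% and 18.2%) and paired 6 up and 12 down (35.5% and 29.1%). Mut3 had 3 up and 10 down (25.3% and 22.4%) and paired 6 up and 14 down (39.5% and 31%). The 10 falls in Mut3 were 32.3% of the members. The median log2 change of the members was -0.03, -0.13, -0.12 and -0.18 in the wild type, Mut1, Mut2 and Mut3, beside 0.07, 0.05, 0.08 and 0.10 over all features. Median-ratio rescaling brought that last value of 0.10 to 0 and the members' median in Mut3 to -0.29. The times share the libraries at 0 min, so the 2 sets of counts are not independent.

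**Figure D2:**
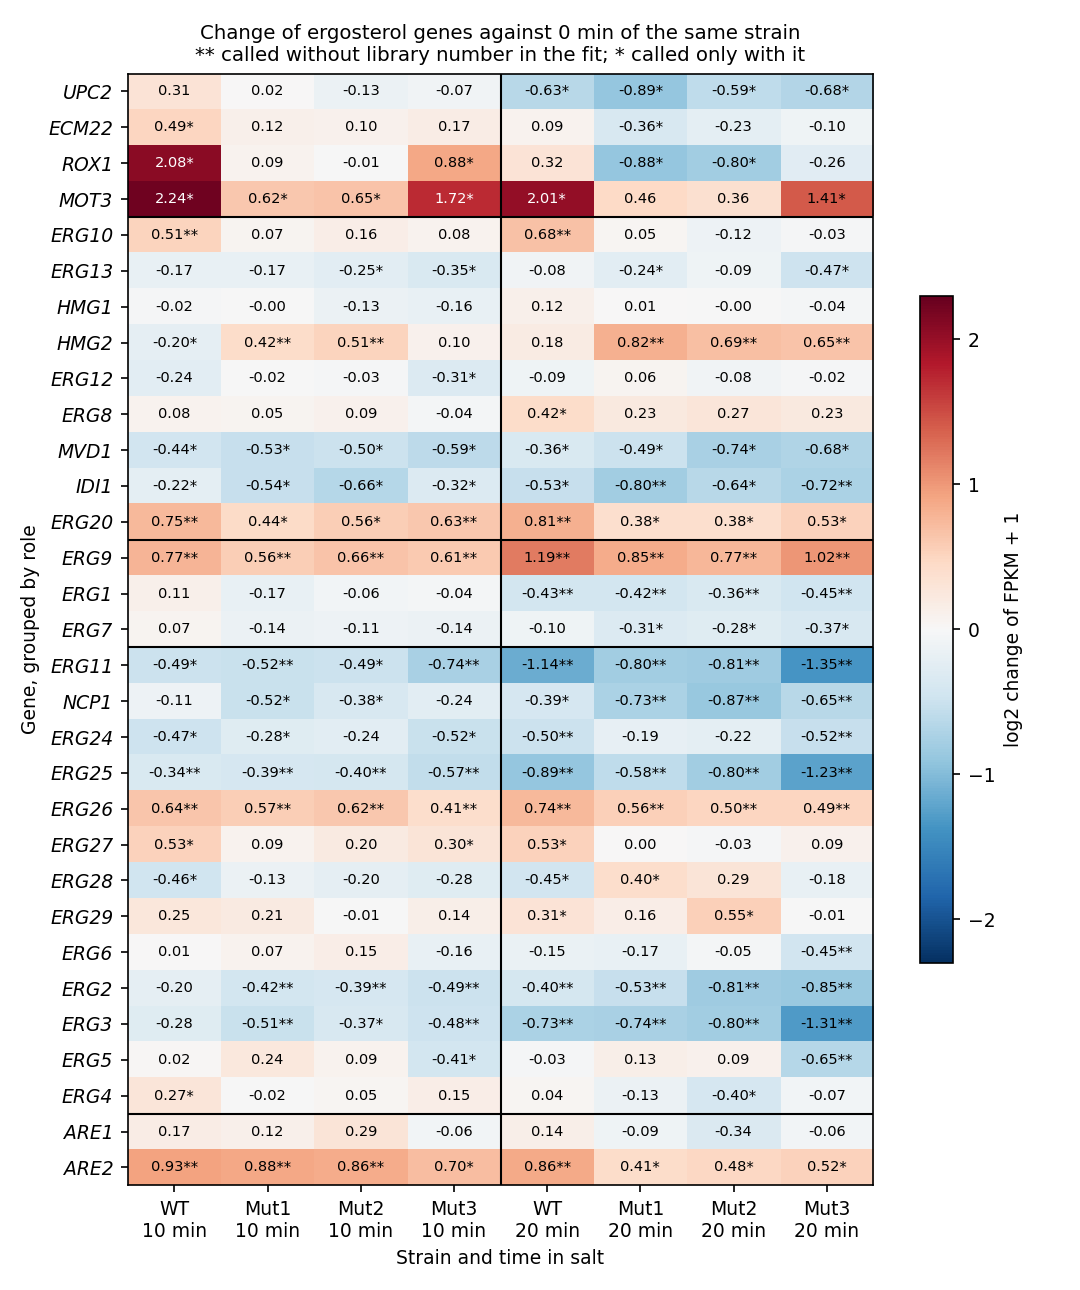
Log2 change in FPKM plus 1 against 0 min for the 31 members (rows, by role) in the 4 strains at 10 and 20 min, as a colour scale. Double stars mark calls of the unpaired fit and single stars calls of the paired fit alone: ERG9 and ERG26 are positive and ERG11 and ERG25 negative in every column.

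Among the late steps, which carry lanosterol to ergosterol, 3 genes of oxygen-using enzymes, ERG11, ERG25 and ERG3, fell in every strain by 20 min. ERG5, also the gene of an oxygen-using enzyme, was called lower at 20 min in Mut3 alone. ERG2, not counted among the oxygen-using ones, fell in every strain too. ERG11 (YHR007C, chromosome VIII, 120091 to 121683) encodes the cytochrome P450 that demethylates lanosterol and is the target of azole drugs. Its FPKM in the wild type was 1283 and 1185 at 0 min, 918 and 838 at 10 min and 611 and 512 at 20 min. Every later group lay wholly below the earlier one. In Mut1 it went from 1153 and 889 to 768 and 650 and then 617 and 550, in Mut2 from 1106 and 1030 to 840 and 690 and then 685 and 540, and in Mut3 from 1069 and 890 to 653 and 518 and then 415 and 352. By 20 min it fell by 1.14 ± 0.19 in the wild type (SE of the unpaired fit, 2.2-fold, adjusted p = 0.000141), 0.80 in Mut1, 0.81 in Mut2 and 1.35 in Mut3 (0.00309, 0.00278 and 2.74e-05). Each of these calls held in both fits without any 1 library. At 10 min the falls of 0.49, 0.52, 0.49 and 0.74 were called by the paired fit in every strain (largest adjusted p 6.54e-05, in Mut2) and kept without any 1 library. The unpaired fit called Mut1 and Mut3 at 10 min (0.0469 and 0.00593). It lost Mut1 without library 0 at 0 min (0.342) or either library at 10 min (0.0594 and 0.276), and Mut3 without library 0 at 0 min (0.0659) or library 1 at 10 min (0.0776).

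ERG25 (YGR060W, chromosome VII, 610564 to 611493), the methyl oxidase that acts on the next methyl groups, was among the most abundant members. It went from 1572 and 1808 FPKM in the wild type to 1247 and 1415 at 10 min and 881 and 940 at 20 min. At 20 min it stood at 857 and 837 in Mut1, 838 and 690 in Mut2 and 571 and 580 in Mut3, from 1258 and 1275, 1407 and 1257, and 1287 and 1414. None of the salt groups overlapped its 0 min group. ERG25 fell by 0.89 ± 0.12 in the wild type, 0.58 in Mut1, 0.80 in Mut2 and 1.23 in Mut3 by 20 min (unpaired adjusted p = 2.5e-05, 0.00126, 7.87e-05 and 8.82e-07), and each call was kept in both fits without any 1 library. At 10 min the falls were 0.34, 0.39, 0.40 and 0.57 (unpaired 0.0381, 0.0238, 0.0199 and 0.00184). The wild-type call at 10 min was lost in both fits without library 1 at 0 min (unpaired 0.23, paired 0.108) or library 0 at 10 min (0.229 and 0.102). The paired fit kept the other three, and the unpaired fit lost Mut1 without any of its libraries in turn (0.0773 to 0.112) and Mut2 without library 0 at 0 min (0.151) or either library at 10 min (0.0588 and 0.0939).

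ERG3 (YLR056W, chromosome XII, 253861 to 254958), the sterol desaturase, was also lower at 20 than at 0 min in every strain. Its calls at 10 min in the mutants were each lost when some libraries were left out. Its wild-type FPKM was 1054 and 1303, then 874 and 1066, then 665 and 750. In Mut1 it went from 831 and 884 to 603 and 599 and to 499 and 527, and in Mut2 from 922 and 831 to 713 and 641 and to 586 and 433. In Mut3 it went from 831 and 1050 to 649 and 688 and to 367 and 385. Every group at 20 min lay wholly below its 0 min group, while the wild-type groups at 0 and 10 min overlap. The falls by 20 min were 0.73 ± 0.17, 0.74, 0.80 and 1.31 in the 4 strains in the order above (unpaired adjusted p = 0.00223, 0.00236, 0.00142 and 1.27e-05), each kept in both fits without any 1 library. ERG2, the sterol isomerase, had the highest mean of all members, 1351 FPKM. It fell by 0.40 in the wild type, from 1753 and 1872 to 1378 and 1375 FPKM, and by 0.53, 0.81 and 0.85 in the mutants (unpaired adjusted p = 0.0104, 0.00183, 4.54e-05 and 2.06e-05). Its wild-type call in the unpaired fit was lost without library 1 at 0 min (0.0652). The paired fit kept all 4.

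ERG5, the last of the P450 enzymes of the route, and ERG6, the sterol methyltransferase, were called lower at 20 min in Mut3 alone. ERG5 went there from 265 and 352 to 181 and 208 FPKM, a fall of 0.65 (paired adjusted p = 0.000781, unpaired 0.00452), and the unpaired call was lost without library 1 at 0 min (0.0686). The wild type had 375 and 441 FPKM at 0 min and 380 and 415 at 20 min. ERG6 fell by 0.45 in Mut3 (unpaired 0.0249, paired 0.00656), a call lost in both fits without library 1 at 20 min (0.137 and 0.0778) and in the unpaired fit without either library at 0 min (0.055 and 0.116). The mutant and wild-type responses of ERG5 and ERG6 were not called different from each other. ERG24, the sterol reductase that follows ERG11, fell at 20 min by 0.50 in the wild type and 0.52 in Mut3 (paired adjusted p = 0.000394 and 0.000266). The unpaired fit called both (0.0457 and 0.0373) and lost each without library 1 at 0 min (0.337 and 0.256) or either library at 20 min (0.171 and 0.0925 in the wild type, 0.169 and 0.0667 in Mut3). NCP1, the reductase that hands electrons to the P450 enzymes, fell by 0.73, 0.87 and 0.65 in Mut1, Mut2 and Mut3 at 20 min (paired adjusted p = 1.44e-05, 2.64e-06 and 4.16e-05, unpaired 0.00923, 0.00301 and 0.0159). The unpaired fit lost Mut1 without library 1 at 0 min (0.0621) or library 0 at 20 min (0.0625), and Mut3 likewise (0.113 and 0.112). In the wild type its fall was 0.39 (paired 0.00286, unpaired 0.129), lost without library 1 at 0 min (0.0674).

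ERG26, which sits between ERG25 and the keto reductase ERG27, went the other way. ERG26 (YGL001C, chromosome VII, 495453 to 496502) encodes the decarboxylating dehydrogenase of that step. Its wild-type FPKM was 142 and 147 at 0 min, 213 and 239 at 10 min and 236 and 249 at 20 min. The mutants started at 109 to 142 FPKM and stood at 175 to 191 at 20 min, and no salt group overlapped its 0 min group. The log2 rise was 0.64, 0.57, 0.62 and 0.41 at 10 min (unpaired adjusted p = 0.000516, 0.00131, 0.000713 and 0.0129) and 0.74, 0.56, 0.50 and 0.49 at 20 min (9.44e-05, 0.00125, 0.00282 and 0.00275), for the wild type, Mut1, Mut2 and Mut3. Without 1 library only the unpaired 10 min call in Mut3 was lost, without library 0 (0.0581) or 1 (0.0561) at 0 min or library 1 at 10 min (0.0979). ERG27 rose by 0.53 at both times in the wild type in the paired fit (adjusted p = 0.000587 and 0.000401, unpaired 0.214 and 0.176), from 196 and 300 FPKM to 299 and 409 and then 307 and 402. ERG28, the scaffold that holds these enzymes together, stood 0.94 to 1.62 log2 units higher in library 1 than in library 0 in every group. It fell by 0.46 at 10 min in the wild type (paired adjusted p = 0.0127), a call lost without library 1 at 0 min or library 0 at 10 min. From 0 to 20 min the paired fit called ERG28 lower in the wild type and higher in Mut1. The group means went from 494 to 333 FPKM and from 265 to 339 FPKM. It was also called higher from 10 to 20 min in Mut1 and Mut2. All of these calls were lost when some libraries were left out.

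**Figure D3:**
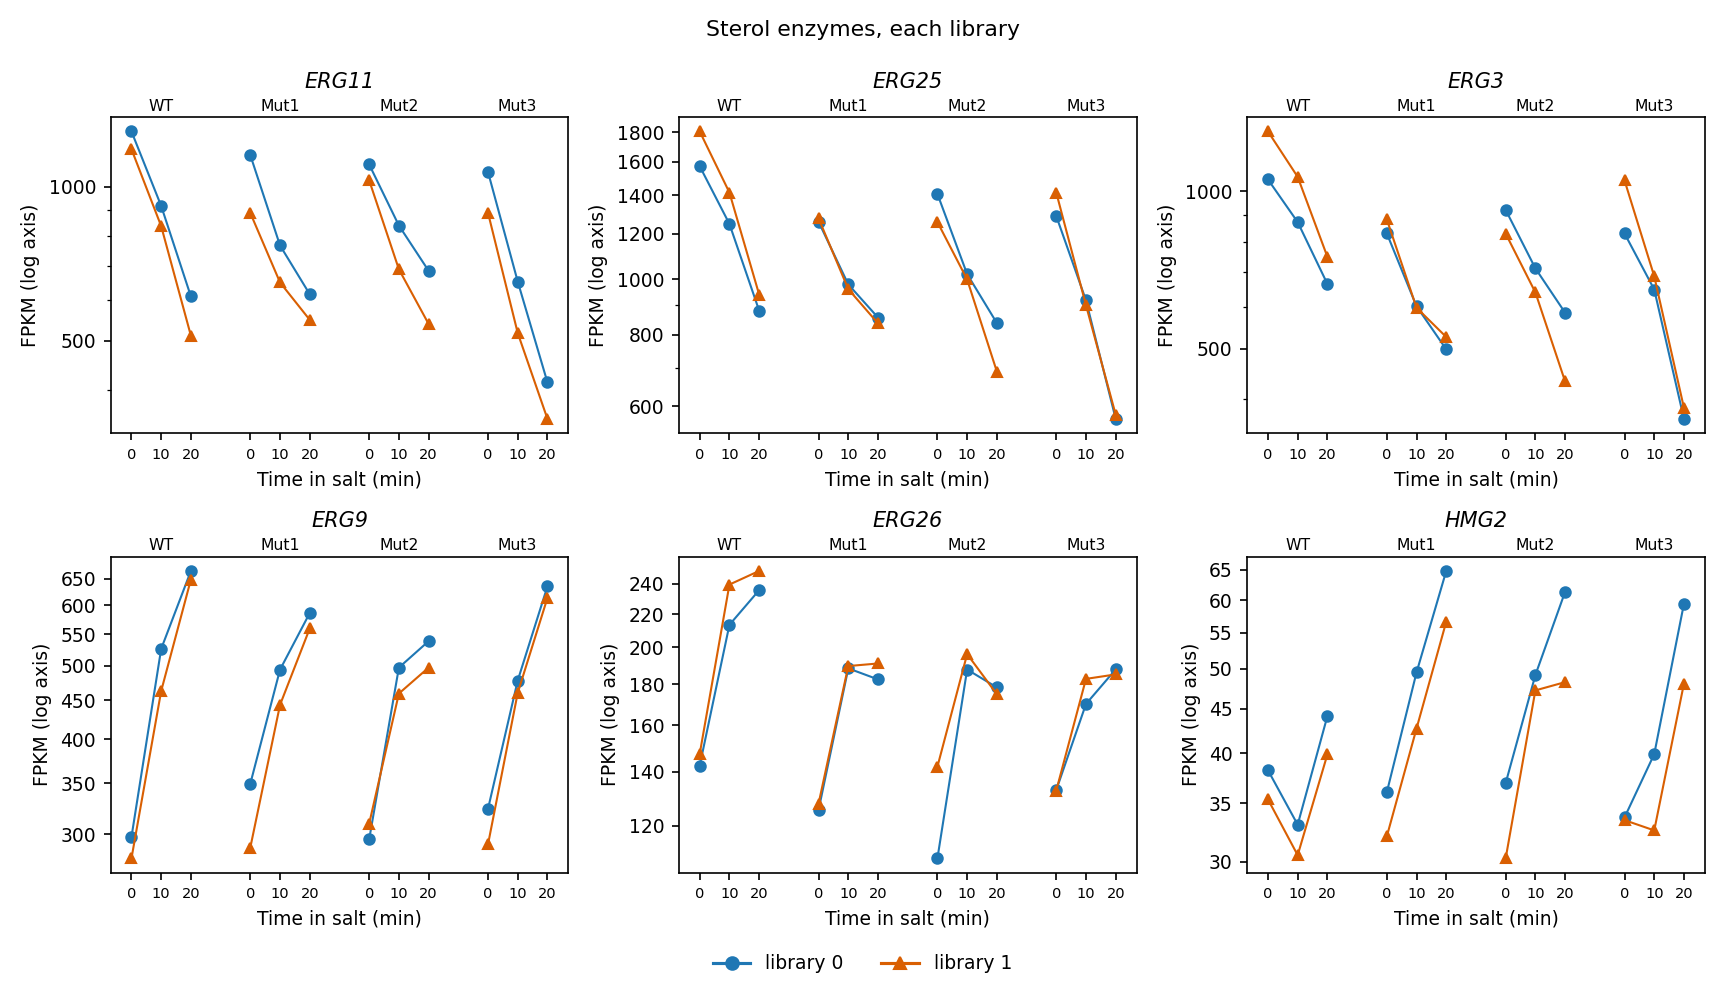
FPKM (log axis) of 6 enzyme genes in each library at 0, 10 and 20 min, by strain. ERG11, ERG25 and ERG3 step down and ERG9 and ERG26 step up in all 4 strains, while HMG2 climbs to between 48.1 and 64.8 FPKM in the mutants and stands at 44.1 and 39.9 in the wild type at 20 min.

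The squalene and lanosterol steps split as well. ERG9 (YHR190W, chromosome VIII, 484845 to 486179) encodes squalene synthase, the enzyme that commits farnesyl diphosphate to sterols. The wild type went from 297 and 279 FPKM to 526 and 463 at 10 min and 666 and 649 at 20 min. In Mut1 the same times gave 350 and 288, 494 and 444, and 586 and 560. In Mut2 they gave 295 and 310, 497 and 459, and 538 and 497, and in Mut3 324 and 291, 478 and 460, and 636 and 614. Every salt group lay above its 0 min group. The 20 min rise was 1.19 ± 0.12 in the wild type, or 2.28-fold (unpaired adjusted p = 1.18e-06), 0.85 in Mut1, 0.77 in Mut2 and 1.02 in Mut3 (4.18e-05, 0.000104 and 5.17e-06). All ERG9 calls against 0 min, at both times and in both fits, were kept without any 1 library.

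ERG1 (YGR175C, chromosome VII, 846933 to 848423) encodes squalene epoxidase, which uses oxygen in the next step. It was not called at 10 min and fell by 20 min. In the wild type it stood at 836 and 797, 899 and 861, and 625 and 588 FPKM. By 20 min it fell by 0.43, 0.42, 0.36 and 0.45 in the wild type, Mut1, Mut2 and Mut3 (unpaired adjusted p = 0.00608, 0.00769, 0.0206 and 0.00418). The paired fit kept all 4 without any 1 library. The unpaired fit lost the wild-type call without library 1 at 20 min (0.0504), the Mut1 call without library 0 at 0 min (0.088) and the Mut2 call without library 1 at 0 min (0.0906) or at 20 min (0.163). ERG7, lanosterol synthase, fell by 0.31, 0.28 and 0.37 in the mutants in the paired fit (adjusted p = 0.0063, 0.0108 and 0.00148). The Mut1 call was lost without library 1 at 0 min (0.0564) or 20 min (0.0651), and the Mut2 call likewise (0.106 and 0.0602).

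In the mevalonate steps the genes of the first enzyme and the last rose in the wild type. ERG10 (YPL028W, chromosome XVI, 498096 to 499292), the thiolase that opens the route, went from 846 and 798 to 1189 and 1151 and then 1313 and 1321 FPKM in the wild type. Each wild-type group lay wholly above the one before. The changes of 0.51 ± 0.15 and 0.68 ± 0.15 were called (unpaired adjusted p = 0.0177 and 0.002). The 20 min call was kept without any 1 library, and the 10 min call was lost in the unpaired fit without any of its 4 libraries in turn (0.0504 to 0.0875). Mut1 stood at 1092 and 833 FPKM at 0 min and at 996 and 977 at 20 min. Mut2 went from 942 and 941 to 941 and 798, and Mut3 from 994 and 897 to 972 and 881. Their 20 min changes of 0.05, -0.12 and -0.03 were not called in either fit. ERG20, farnesyl diphosphate synthase at the end of this section, rose at both times in all 4 strains in the paired fit. At 20 min the wild type had gone from 634 and 547 to 1147 and 932 FPKM, a rise of 0.81 ± 0.22 (unpaired adjusted p = 0.00722), and the mutants had risen by 0.38 to 0.53 (paired adjusted p = 0.00176, 0.00161 and 9.55e-05, unpaired 0.198, 0.193 and 0.0626). In the unpaired fit the wild-type call was lost without library 1 at 0 min (0.0538) or library 0 at 20 min (0.0671).

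HMG-CoA reductase, the step at which the route is chiefly controlled, has 2 genes. HMG2 (YLR450W, chromosome XII, 1032627 to 1035764) stood at 38.2 and 35.4 FPKM in the wild type, 33.1 and 30.5 at 10 min and 44.1 and 39.9 at 20 min. Mut1 rose from 36.0 and 32.1 to 49.5 and 42.7 and to 64.8 and 56.7. Mut2 rose from 36.9 and 30.3 to 49.2 and 47.2 and to 61.3 and 48.3, and Mut3 went from 33.7 and 33.5 to 39.9 and 32.6 and to 59.4 and 48.1. All mutant libraries at 20 min lay above all mutant libraries at 0 min. At 10 min HMG2 had fallen by 0.20 in the wild type in the paired fit (adjusted p = 0.0376, unpaired 0.344), a call lost without any of its 4 libraries in turn (0.0544 to 0.19). The 10 min rises of 0.42 in Mut1 and 0.51 in Mut2 were called in both fits (unpaired adjusted p = 0.0493 and 0.0188). The paired fit kept both without any 1 library, while the unpaired fit lost Mut1 without any of the 4 (0.0644 to 0.256) and Mut2 without library 1 at 0 min (0.145) or either at 10 min (0.0826 and 0.0641). The rises by 20 min were 0.82, 0.69 and 0.65 in Mut1, Mut2 and Mut3 (unpaired adjusted p = 0.000596, 0.00238 and 0.00267), kept without any 1 library in both fits, against 0.18 in the wild type (unpaired 0.355, paired 0.0514). HMG1 (YML075C, chromosome XIII, 115734 to 118898), the other reductase gene, was not called in salt in any strain. The wild type held it at 150 and 146 FPKM at 0 min and 165 and 157 at 20 min.

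Between these ends, the last steps before ERG20 fell. IDI1, which isomerizes isopentenyl diphosphate, fell by 0.53, 0.80, 0.64 and 0.72 at 20 min in the wild type, Mut1, Mut2 and Mut3 (paired adjusted p = 8.19e-05, 1.71e-06, 1.81e-05 and 4.18e-06), from 379 and 292 to 263 and 201 FPKM in the wild type. MVD1, the decarboxylase before it, fell by 0.49, 0.74 and 0.68 in the mutants (paired 0.000543, 1.36e-05 and 2.41e-05) and by 0.36 in the wild type (paired 0.00538), the last lost without library 1 at 0 min (0.121) or 20 min (0.0508). The unpaired fit called only IDI1 in Mut1 (0.0287) and Mut3 (0.0404) among these. It lost the first without library 0 (0.159) or 1 (0.0509) at 0 min or library 1 at 20 min (0.226), and the second without library 0 at 0 min (0.242) or library 1 at 20 min (0.291). ERG13, HMG-CoA synthase, fell by 0.47 in Mut3 at 20 min (paired 0.000634, unpaired 0.117). ERG12 and ERG8, the kinases of mevalonate, had no call at 20 min kept without every library in turn: ERG8 rose by 0.42 in the wild type (paired 0.00841), which was lost without library 0 at 0 min (0.101) or 20 min (0.0999).

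Of the esterification genes, which store sterols as lipid droplet esters, ARE2 (YNR019W, chromosome XIV, 665339 to 667267) rose. Its FPKM went from 65.5 and 99.0 in the wild type to 127 and 188 and then 135 and 161, from 55.6 and 76.9 in Mut1 to 110 and 133 and then 80.1 and 95.7, from 58.2 and 83.1 in Mut2 to 112 and 144 and then 87.0 and 109, and from 63.8 and 85.2 in Mut3 to 106 and 138 and then 93.1 and 122. All libraries in salt lay above both 0 min libraries of their strain. The 10 min rise was 0.93, 0.88, 0.86 and 0.70 (paired adjusted p = 4.07e-07, 7.55e-07, 1.01e-06 and 7.41e-06), and each was kept by the paired fit without any 1 library. The unpaired fit called the first 3 (0.0177, 0.0264 and 0.0298, Mut3 0.0683) and lost each without library 0 at 0 min (0.182, 0.214 and 0.24) or library 1 at 10 min (0.175, 0.168 and 0.198). In Mut1 and Mut2 the rise was smaller at 20 than at 10 min, by 0.47 and 0.38 (paired 0.00195 and 0.00563), the second lost without library 0 of Mut2 at 10 min (0.054). ARE1, the other acyltransferase gene, was not called against 0 min in any strain. It overlaps YCR050C on the opposite strand, and since the counting is not stated to use strand its values are uncertain.

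From 10 to 20 min most of the members called by the paired fit fell. The unpaired fit called 4 in the wild type (background 14.2% of features), 0 in Mut1 (3%), 0 in Mut2 (4.31%) and 7 in Mut3 (14.2%). In limma's unpaired fit 3 members in Mut1 and 6 in Mut2 had an unadjusted p under 0.05. The paired fit called 12, 9, 14 and 13 (backgrounds 41.8%, 20.3%, 28.4% and 42.3%), of which 9, 6, 12 and 10 were lower, where 19%, 10%, 13.7% and 18.1% of all features were called lower. Of these calls 7, 3, 3 and 9 were kept without any 1 library. Those kept were UPC2, ERG25, ERG1, ERG11, ERG9, HMG2 and ROX1 in the wild type, HMG2, ARE2 and ROX1 in Mut1, and NCP1, ERG2 and ROX1 in Mut2. In Mut1 and Mut2 leaving out any of the 4 libraries lost some of the others (0.0589 to 0.181 and 0.0529 to 0.463). Without library 0 of Mut2 at 20 min, whose RNA gene share was high, the Mut2 count was 10. ROX1 fell in all 4 strains in the paired fit, by 1.76, 0.97, 0.79 and 1.15 (adjusted p = 4.58e-06, 0.00176, 0.00479 and 0.000149), and each was kept without any 1 library. HMG2 rose by 0.39, 0.39 and 0.56 in the wild type, Mut1 and Mut3 (paired 0.00134, 0.00345 and 7.56e-05). In Mut3 ERG3 fell by 0.83 and ERG25 by 0.66 (unpaired adjusted p = 0.0039 and 0.00193), both kept in both fits without any 1 library. These 2 were the only ones of the 7 unpaired calls in Mut3 so kept. The unpaired calls in the wild type, ERG25, ERG1, ERG11 and ERG9, were each lost without at least 1 library: ERG25 without library 1 at 10 min (0.0759) or 0 at 20 min (0.0623), ERG1 without library 1 at 20 min (0.0588), and ERG11 and ERG9 without any of the 4 in turn (0.0552 to 0.235 and 0.0511 to 0.205).

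**Figure D4:**
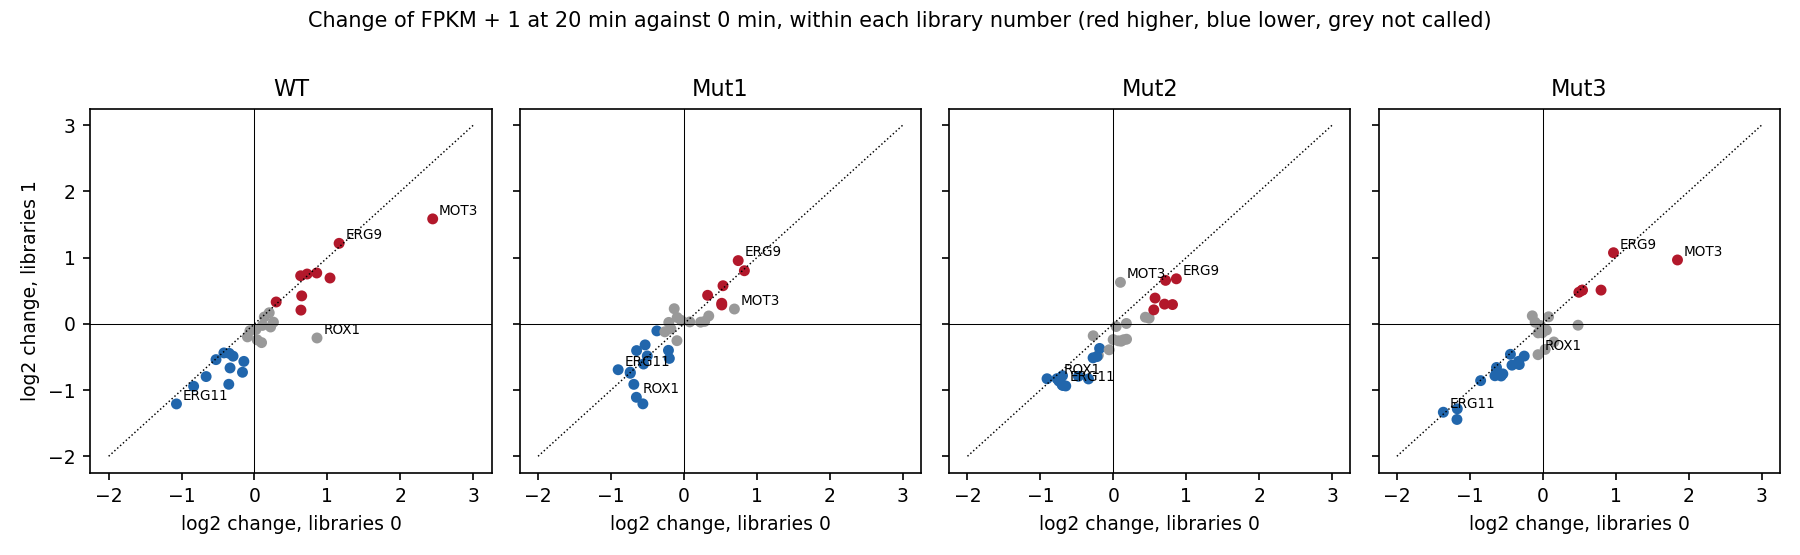
Log2 change of each member from 0 to 20 min within library 0 (horizontal axis) and within library 1 (vertical axis), 1 panel a strain. ERG11 and ERG9 lie near the diagonal (-1.07 and -1.21 for ERG11, 1.16 and 1.22 for ERG9 in the wild type), while ROX1 in the wild type was 0.86 in library 0 and -0.21 in library 1.

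Before salt, a few enzyme genes were already lower in the mutants. HMG1 stood at 150 and 146 FPKM in the wild type, 104 and 87.3 in Mut1, 99.0 and 85.3 in Mut2 and 107 and 97.7 in Mut3. No mutant library reached the wild-type values. The differences were -0.63, -0.68 and -0.53 on the log2 scale (unpaired adjusted p = 0.0118, 0.00704 and 0.0741, paired 0.000107, 5.12e-05 and 0.00103). ERG1 was at 836 and 797 FPKM in the wild type and at 645 and 564, 541 and 566, and 604 and 594 in the mutants, again with no overlap. Its differences were -0.43, -0.56 and -0.45 (unpaired 0.0428, 0.00872 and 0.077, paired 0.000653, 7.5e-05 and 0.0012). The paired fit kept all 6 of these calls without any 1 library.

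HMG1 and ERG1 were the 2 members called by the unpaired fit in Mut1 (background 4.62% of features) and in Mut2 (4.51%), and 0 were called in Mut3 (1.62%), where 4 had an unadjusted p under 0.05 in limma. Each of these 4 unpaired calls was lost when some libraries were left out. For HMG1 they were lost without library 0 (0.0924) or 1 (0.0631) of the wild type or library 1 of Mut1 (0.165), and without library 0 of the wild type (0.0645) or 1 of Mut2 (0.0909). For ERG1 they were lost without any of the 4 libraries in Mut1 (0.0577 to 0.362), and without library 0 of the wild type (0.0867) or of Mut2 (0.0651). The paired fit called 9, 9 and 4 members (18.1%, 20.9% and 7.91%), of which 8, 7 and 4 were lower, beside 6.49%, 8.68% and 2.61% of all features, and 3, 3 and 2 were kept without any 1 library. ERG28 was among them in each mutant, at -0.85, -0.73 and -0.55 (paired 0.000796, 0.00272 and 0.0317, unpaired 0.943, 0.921 and 1). The last was lost without library 1 of the wild type (0.299) or either library of Mut3 (0.223 and 0.0836). Among the others, ERG25 was called lower in Mut1 and Mut2, at group means of 1267 and 1332 FPKM against 1690 in the wild type. ERG11 was called lower in Mut1 and Mut3, at 1021 and 979 FPKM against 1234. NCP1 was called higher in Mut2, at 192 FPKM against 150. The paired fit alone made these calls, and each was lost when some libraries were left out. The 3 mutants are compared with the same 2 wild-type libraries, so these differences are not independent.

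Whether the responses to salt differed between strains was tested as the difference of the changes, mutant minus wild type. The unpaired fit called 0 members in any of the 6 comparisons, with backgrounds of 2.59%, 2.42% and 0.189% of features at 10 min and 2.5%, 3.13% and 0.299% at 20 min for Mut1, Mut2 and Mut3. In limma 1, 1 and 0 members had an unadjusted p under 0.05 at 10 min and 2, 4 and 5 at 20 min. The paired fit called 4, 4 and 1 at 10 min (16.4%, 15.6% and 1.09%) and 10, 13 and 2 at 20 min (15.5%, 25.3% and 3.73%). Without library 0 of Mut2 at 20 min the count of 13 was 8, the lost calls being ERG28 (0.0929), ERG11 (0.13), NCP1 (0.0791), ERG20 (0.0575) and ARE2 (0.0561). All 6 comparisons share the wild-type libraries.

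ROX1 and MOT3 gave the largest of these differences in Mut1 and Mut2. Those of ROX1 contain its higher start before salt, by 0.85 in Mut1 and 0.89 in Mut2. For ROX1 the mutant change was smaller than the wild-type one by 1.99 ± 0.25 in Mut1 and 2.09 ± 0.25 in Mut2 at 10 min (SE of the paired fit, paired adjusted p = 0.000126 and 7.87e-05, unpaired 0.698 and 0.677). In Mut3 it was smaller by 1.20 (paired 0.0364), a call that 7 of the 8 fits without a library lost (0.0835 to 0.154). For MOT3 the differences were -1.62 and -1.59 at 10 min and -1.56 and -1.65 at 20 min in Mut1 and Mut2 (paired 0.00282, 0.00339, 0.00395 and 0.00176), while in Mut3 they were -0.52 and -0.61 (paired 0.613 and 0.369). The change of HMG2 was higher in Mut1 and Mut2 than in the wild type, by 0.63 and 0.72 at 10 min and 0.63 and 0.50 at 20 min (paired 0.00179, 0.000681, 0.00187 and 0.00559). ERG10 changed less at 20 min, by 0.63, 0.80 and 0.71 in Mut1, Mut2 and Mut3 (paired 0.00601, 0.000788 and 0.00876). The ROX1, MOT3 and HMG2 calls in Mut1 and Mut2, and the 20 min ERG10 calls in these mutants, were kept without any 1 library. The ERG10 call in Mut3 was lost without library 0 of the wild type at 0 min (0.051) or library 1 at 20 min (0.0517). The other Mut3 call at 20 min, HMG2 at 0.47 (0.0347), was lost in 6 of 8 fits (0.069 to 0.151).

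For ERG9, ERG11, ERG25 and ERG3 the differences in Mut1 and Mut2 were smaller in size than those of ROX1 and MOT3. ERG9 rose less in Mut2 by 0.42 ± 0.10 at 20 min (paired adjusted p = 0.00994), kept without any 1 library, and less in Mut1 by 0.34 (0.0399), lost in 7 of 8 fits (0.0644 to 0.161). The group means of ERG11 before salt were 1234, 1021 and 1068 FPKM in the wild type, Mut1 and Mut2. At 20 min they were 561, 583 and 613 FPKM. Its response differences therefore contain the lower start of these mutants. ERG11 fell less in Mut1 and Mut2, by 0.34 and 0.33 (0.0437 and 0.036). These calls were lost in 6 fits for Mut1 (0.0668 to 0.164) and 5 for Mut2 (0.0751 to 0.13). The salt responses of ERG25 and ERG3 were not called different from those of the wild type in any mutant at either time. In Mut3 both genes nevertheless reached their lowest values. Before salt, the paired fit had called ERG25 lower in Mut1 and Mut2 than in the wild type.

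**Figure D5:**
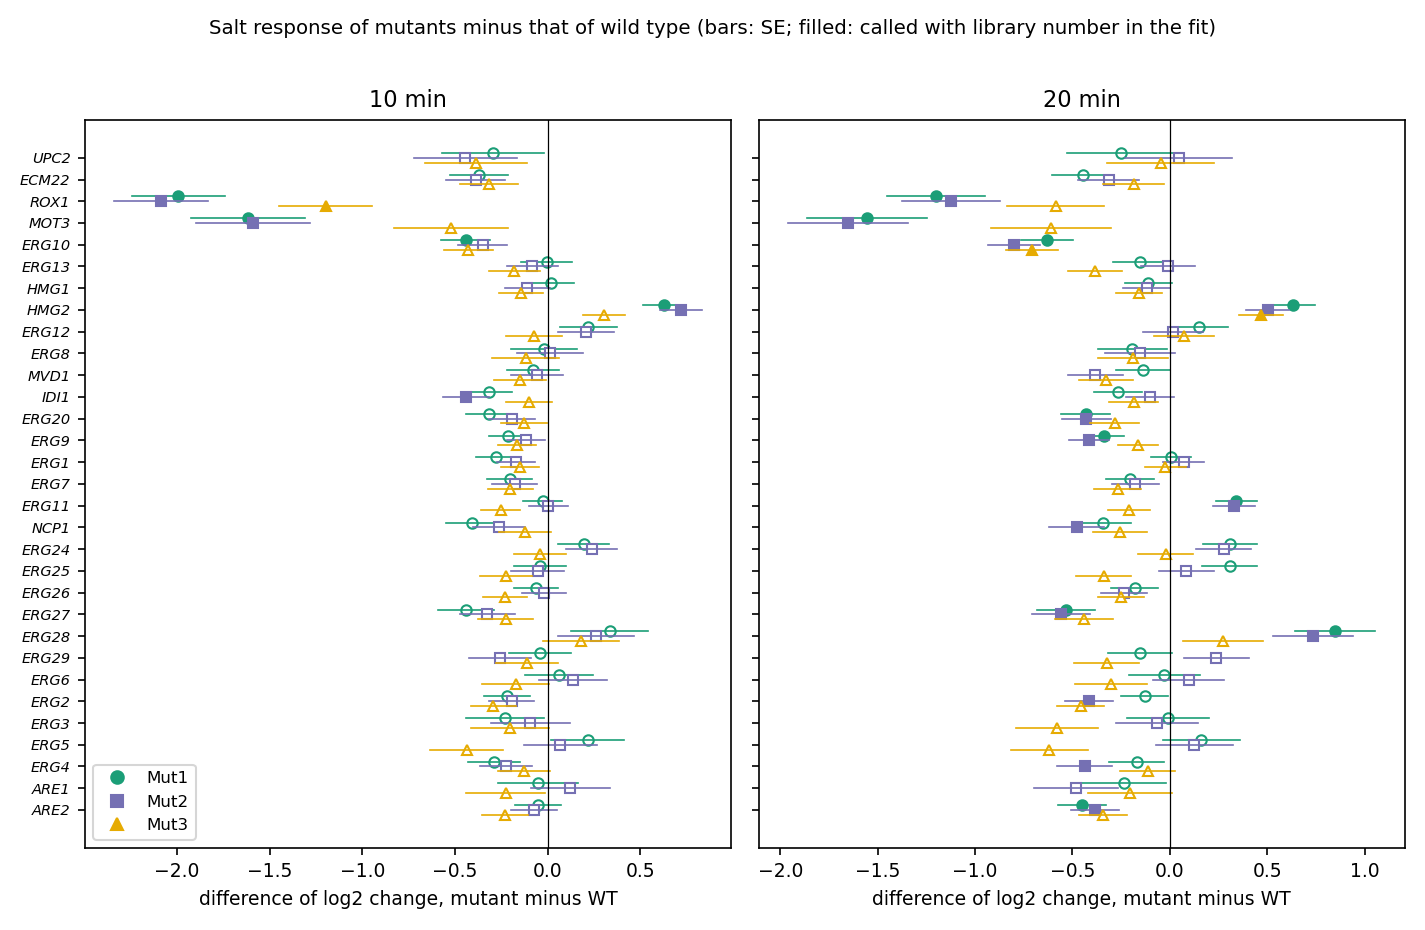
Difference between the mutant's and the wild type's log2 change at 10 and 20 min for the members, with bars for the SE of the paired fit and filled points for its calls. ROX1 and MOT3 lie lowest in Mut1 and Mut2 (-1.99 and -2.09 for ROX1 at 10 min), HMG2 lies above 0, and Mut3 has 1 filled point at 10 min and 2 at 20 min.

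Other genes of sterol supply and use, from lists made by function, moved in both directions. Of 17 sterol transport genes, 4 rose and 5 fell in the wild type at 10 min, and 7 rose and 3 fell at 20 min (unpaired). Over all features 17.6% rose and 17.6% fell at 10 min, and 24.5% and 22.5% at 20 min, and the latter pair is the background of each unpaired list count at 20 min that follows. OSH2 and LAM4, a pair of lipid transfer protein genes, rose by 1.94 and 1.69 at 10 min, from 17.7 to 70.3 and from 9.69 to 33.1 FPKM as group means (adjusted p = 7.71e-05 and 0.000226). The median log2 change of the list was 0.23 at 10 min and 0.45 at 20 min, beside 0.02 and 0.07 over all features. A list of 9 genes joined those for degradation of HMG-CoA reductase and squalene epoxidase with genes whose products bind the reductase. Of these 9, 5 rose and 1 fell at 20 min, with a median of 0.77. NSG2, which binds HMG-CoA reductase and is not a degradation enzyme, rose by 1.65 (unpaired adjusted p = 8.92e-07). HRD1, the ubiquitin ligase of the reductase, rose by 1.35 (3.15e-05). All 4 of these named calls were kept in both fits without any 1 library.

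Haem and electron supply gave 1 rise and 2 falls among 11 genes at 20 min: CYB5, the cytochrome b5 that serves sterol enzymes, fell by 1.31 from 988 to 399 FPKM, and HEM13, an oxygen-using step of haem synthesis, by 1.21 (adjusted p = 0.00199 and 0.0001), with a list median of 0.07. Of 8 tested genes on the branches from farnesyl diphosphate, 3 rose and 0 fell in the unpaired fit, led by NUS1 (1.11) and COQ1 (0.92), with a median of 0.41. Among 9 other regulators 3 rose and 1 fell, SUT2 falling by 1.74, with a median of 0.04. Among 8 tested hypoxic genes 1 rose, COX5B by 2.40, and 3 fell, AAC3 by 1.89 among them, with a median of -0.82. Of 5 genes of ester hydrolysis and sterol acetylation 1 rose and 3 fell, with ATF2 at -1.33, YEH1 at -0.94 and a median of -0.67. Before salt, AAC3 was lower in Mut1, Mut2 and Mut3 by 1.77, 1.30 and 1.43 (8.12e-05, 0.00136 and 0.00105). The AAC3, ATF2, COQ1, COX5B, CYB5, HEM13, NUS1, SUT2 and YEH1 calls named here were kept in both fits without any 1 library. In the paired fit 38.8% of all features rose and 31.9% fell at 20 min. The counts there were 11 up and 4 down for transport, 5 and 3 for degradation and reductase binding, and 5 and 3 for haem. They were 4 and 1 for the branches, 3 and 1 for regulators, 1 and 6 for hypoxic genes and 2 and 3 for esters.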

How the data were processed

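The authors deposited 1 table of FPKM values for 7126 features in 24 libraries, 2 in each of 12 groups of strain and time. Per the labels' protocols the RNA was treated with DNase and made into stranded mRNA libraries. Per the submitters' processing notes TopHat2, Cuffdiff and the sacCer3 build were used. For the versions, the annotation and the strand setting of the counting, nothing is given in the sources used here. FPKM keeps no read depth, so the precision of single values is unknown. Of the features, 6169 were matched to the R64 annotation, 957 were kept under their own names and 481 were listed at 0 in every library. All columns were used.

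The members and the gene lists were chosen with earlier results of these data known. Values were tested as log2(FPKM + 1), which understates changes of low genes, with limma 3.58.1 (trend, R 4.3.3) over 12 group means on the 6359 features whose mean reached 1 FPKM, with Benjamini-Hochberg adjustment over all of them. Fold changes are on that scale. Residual degrees of freedom were 12, or 11 with the library number as a term. The number in the column names was taken as a pairing because libraries of the same number deviated together in all 66 pairs of groups (correlations across features of 0.23 to 0.601). It was not matched to the replicate numbers of the labels, and what it marks is not stated. The fits were tested on simulated data. Alternatives were a pseudocount of 0.1, no filter, median-ratio rescaling, the library number as a block, and leaving out libraries. All members may be named, and of each list at most the 2 called genes of largest change per comparison. Near-identical copies were looked for with blastn 2.17.0, and 0 pairs were found among the members.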

Additional observations from a re-analysis of the deposited data

Results flagged for a closer look

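In these data 34 differences between the salt response of a mutant and that of the wild type were past the threshold in the paired limma fit, and 0 were in the unpaired fit. All values are mutant minus wild type on the log2 scale, each mutant is set against the same wild-type libraries, and no cause was tested. Leaving out each of the 8 libraries of a comparison in turn kept 3 of 4, 3 of 4 and 0 of 1 calls at 10 min in Mut1, Mut2 and Mut3, and 4 of 10, 5 of 13 and 0 of 2 at 20 min. For ROX1 the differences were -1.99 (Mut1), -2.09 (Mut2) and -1.20 (Mut3) at 10 min, and -1.20 (Mut1) and -1.12 (Mut2) at 20 min. They contain the higher start of ROX1 before salt, by 0.85 in Mut1 and 0.89 in Mut2. At 20 min its group means were 45.4, 37.3 and 41.0 FPKM in the wild type, Mut1 and Mut2. MOT3 differed by -1.62 and -1.59 in Mut1 and Mut2 at 10 min and by -1.56 and -1.65 at 20 min. HMG2 differed by 0.63 and 0.72 at 10 min in Mut1 and Mut2, and by 0.63, 0.50 and 0.47 at 20 min in Mut1, Mut2 and Mut3. ERG10 differed by -0.44 in Mut1 at 10 min and by -0.63, -0.80 and -0.71 in Mut1, Mut2 and Mut3 at 20 min.

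IDI1 differed by -0.44 in Mut2 at 10 min. At 20 min the differences in Mut1 and Mut2 were 0.85 and 0.74 for ERG28, 0.34 and 0.33 for ERG11, -0.34 and -0.42 for ERG9, -0.43 and -0.43 for ERG20, -0.53 and -0.56 for ERG27, and -0.45 and -0.38 for ARE2. In Mut2 alone they were -0.44 for ERG4, -0.48 for NCP1 and -0.42 for ERG2. Of the calls for these 10 genes, that of ERG9 in Mut2 was kept in all 8 fits. At 10 min, IDI1 in Mut2 was lost in 6 fits (0.051 to 0.114), and ERG10 in Mut1 in 7 (0.0525 to 0.158). At 20 min in Mut1, ERG9 and ERG20 were lost in 7 fits (0.0644 to 0.161 and 0.0518 to 0.113), ERG11 and ERG27 in 6 (0.0668 to 0.164 and 0.0533 to 0.119), and ERG28 and ARE2 in 4 (0.054 to 0.0662 and 0.0865 to 0.115). In Mut2 at 20 min, ERG11, ERG20, ERG4 and ARE2 were lost in 5 fits (0.0751 to 0.13, 0.0575 to 0.0837, 0.0573 to 0.16 and 0.0561 to 0.159), NCP1 and ERG2 in 4 (0.0548 to 0.117 and 0.0704 to 0.104), ERG28 in 3 (0.0837 to 0.0929) and ERG27 in 2 (0.0579 and 0.0714). Library 0 of the wild type at 0 min was among the libraries that lost each of these calls except those of ERG28 and ERG11, which library 1 of that group lost. A call in Mut2 alone does not show that Mut2 differs from Mut1, which was not tested. The group means of ERG28 before salt were 494, 265 and 285 FPKM in the wild type, Mut1 and Mut2. At 20 min they were 333, 339 and 331 FPKM. Its response differences therefore contain the lower start of these mutants, and its levels at 20 min were close. Those of ERG11 also contain a lower start, at 1021 and 1068 FPKM in Mut1 and Mut2 against 1234 in the wild type. That of NCP1 in Mut2 contains a higher start, at 192 FPKM against 150 in the wild type. At 20 min the NCP1 means were 105 and 113 FPKM in Mut2 and the wild type.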

How the results depend on the processing

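The replicate block, which is the library number as a term of the fit, moved every count of members called. It gave 17, 14, 14 and 17 at 10 against 0 min for the wild type, Mut1, Mut2 and Mut3 (6, 8, 6 and 7 without it), 20, 19, 18 and 20 at 20 against 0 min, 12, 9, 14 and 13 at 20 against 10 min, and 9, 9 and 4 for the mutants at 0 min. Response differences gave 4, 4 and 1 at 10 min and 10, 13 and 2 at 20 min. With rescaling added, chosen after seeing the data, the block counts were 19, 17, 16 and 20, then 22, 20, 21 and 22, then 15, 11, 17 and 18, then 13, 13 and 5, then 8, 4 and 1, and 10, 15 and 6, in the same order. With the block and without library 0 of Mut2 at 20 min in any comparison, also chosen after seeing the data, they were 19, 15, 14 and 17, then 21, 19, 18 and 20, then 13, 10, 10 and 13, then 11, 10 and 6, then 4, 4 and 0, the ROX1 call in Mut3 at 10 min being lost, and 10, 8 and 2. Without the block, rescaling gave 1 in the wild type, 2 in Mut2 and 3 in Mut3 at 20 against 10 min and 1 each in Mut1 and Mut2 at 0 min, and no filter gave 1 in Mut2 at 20 against 10 min. A pseudocount of 0.1 kept all 21 counts within 1.5 times the reported ones. Leaving out 1 library at a time gave, at 10 against 0 min, 3 to 5 in the wild type, 2 to 5 in Mut1, 2 to 4 in Mut2 and 3 to 7 in Mut3. At 20 against 0 min it gave 8 to 11, 8 to 9, 8 to 10 and 9 to 11. At 20 against 10 min it gave 1 to 2 in the wild type and 2 to 4 in Mut3, and at 0 min 0 to 1 in Mut1 and 0 to 2 in Mut2. The cause of these moves was not tested. No call reversed its direction. Leaving out a library leaves its group with 1, assumed to vary like the other groups. The FPKM carry no read depth, so counting error is not known.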
